A study of Mus musculus with 12 samples.

Results

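Treg cells labelled Tbet-KO were compared with Treg cells labelled WT, both sorted from the bone marrow (BM) of mice with MLL-AF9 leukemia, by bulk RNA sequencing. The comparison uses 6 of the 12 libraries of the series, the 3 titled Tbet-KO Treg and the 3 titled WT Treg, chosen by title alone, and covers the 13782 genes that passed a filter on low counts, of 14259 in the count table. The question was what differs between Treg cells labelled Tbet-KO and those labelled WT in leukemic marrow. Each kind of Treg cell went to its own group of mice. The study reports shorter survival of mice given Tbet-/- Treg cells than of mice given WT Treg cells. Whether the marrow differed between these groups on day 14 was not tested here. Such a difference cannot be told apart from the label.

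The mice, C57BL/6 by their labels, had received MLL-AF9 leukemia cells that carry eGFP, together with Treg cells as the minority of the transferred T cells and WT Foxp3-negative T cells as the rest. Treg cells were sorted from the marrow on day 14 after the leukemia challenge. The Tbet-KO group received Tbet-/- Treg cells and the WT group Foxp3-eGFP Treg cells. The other groups of the series, used here only for levels side by side, are 3 libraries of ST2-KO Treg cells with leukemia, from ST2-/- mice bred to the Foxp3-eGFP reporter, and 3 of WT Treg cells without leukemia (No Tumor). The study describes its adoptive transfer hosts as lethally irradiated. The study gives ages for purchased mice and for hosts used in survival, treatment and tumor growth experiments, but no label ties an age to these libraries, and the Tbet-/- allele is not given in the sources used here. The sort differed with the label: Tbet-/- Treg cells were taken as CD4+ CD25+ CD127- cells, and WT and ST2-/- Treg cells as CD4+ CD25+ eGFP+ cells. Genotype and gate therefore cannot be told apart in any result that follows, and Cd4, Il2ra (CD25) and Il7r (CD127) encode gate markers. No label says that each library came from a separate mouse, so p-values measure the spread between libraries, which was small (biological coefficient of variation 5.53%).

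Tbet, encoded by Tbx21, is the T-box transcription factor that directs Th1 differentiation: it activates Ifng and Cxcr3 and restrains GATA3, the factor of Th2 cells and type 2 cytokines. Treg cells use the same factors, with Foxp3 as their lineage factor. Tbet marks Treg cells that follow Th1 responses, and GATA3 marks tissue Treg cells that carry ST2, the IL-33 receptor. Type 2 cytokines lie in 1 gene cluster with shared regulation and act on eosinophils, B cells and macrophages.

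Of the 13782 genes, 5322 (38.6%) were called at an adjusted p below 0.05, of which 2489 (18.1%) were higher in the Tbet-KO-labelled libraries and 2833 (20.6%) lower. In 25.3% of genes all 3 Tbet-KO-labelled libraries stood above all 3 WT libraries, and in 26.1% below them. With the study's further threshold of a log2 fold change beyond 1, 288 (2.09%) were higher and 722 (5.24%) lower. Levels are counts per 1000000 counts of a library (CPM) after scaling of library sizes by TMM, and p-values come from the quasi-likelihood test of edgeR, adjusted over all tested genes by Benjamini and Hochberg's method. SE is the standard error of a log2 fold change. Total counts were 13782061 to 16568031 in the Tbet-KO-labelled libraries and 14340785 to 18042521 in tumor WT. Treg and T cell markers were present in all 6 libraries: Foxp3 was at a log2 FPKM, the deposited level per transcript length, of 4.75 to 4.91 in the Tbet-KO-labelled libraries and 5.29 to 5.36 in tumor WT. On that scale the neutrophil granule gene Ngp stood far above it, at 12.22 to 12.25 in the Tbet-KO-labelled libraries and 12.53 in all 3 tumor WT libraries, so transcripts of myeloid cells were abundant in libraries labelled as Treg cells. In bulk RNA, fewer cells of a type and less RNA per cell cannot be told apart. T cell genes as a class stood higher in the Tbet-KO-labelled libraries: when library sizes were set to the summed counts of 17 T cell receptor and coreceptor genes (T cell scale), the median of all genes moved by -0.15, and 1123 genes were higher and 4952 lower at an adjusted p below 0.05.

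**Figure D1:**
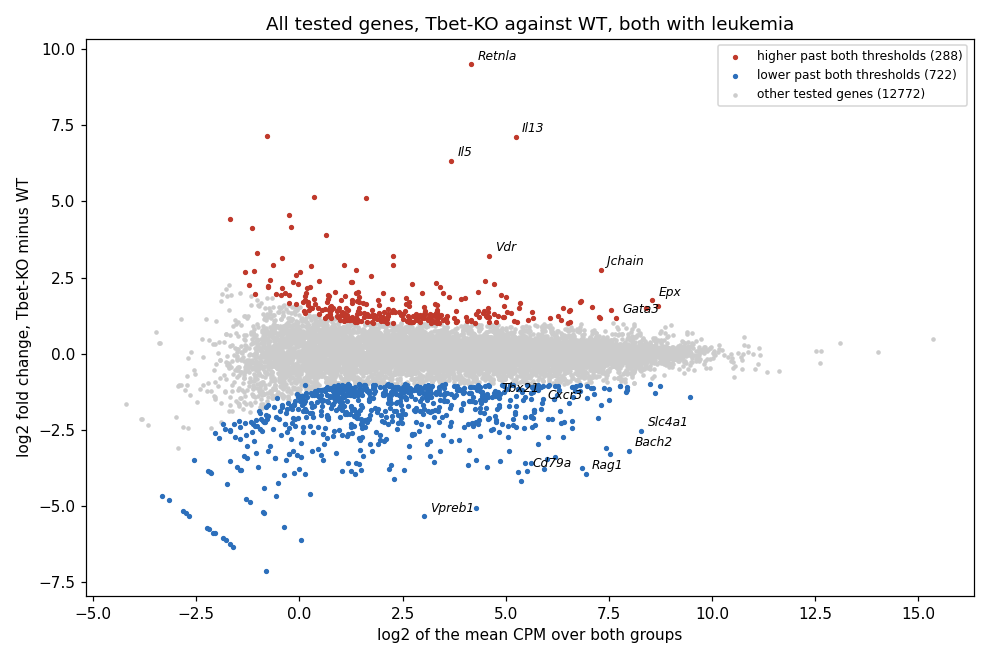
Each point is 1 of the 13782 tested genes, with the log2 of its mean CPM over both groups on the horizontal axis and the log2 fold change (Tbet-KO minus WT) on the vertical axis. The 288 genes higher and 722 genes lower past both thresholds are colored, with Retnla, Il13 and Il5 among the highest and Vpreb1 and Rag1 among the lowest.

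Tbx21 itself was lower but not lost. It had 16.1, 14 and 13.8 CPM in the Tbet-KO-labelled libraries, against 41.7, 36.2 and 38.1 CPM in the tumor WT libraries. The groups did not overlap, and the log2 fold change was -1.40 (SE 0.12, adjusted p = 5.23e-18). Tbx21 had 20.1 CPM in ST2-KO and 15.4 CPM in no tumor WT. The CPM of the Tbet-KO-labelled libraries was thus near that of WT Treg cells without leukemia. The T cell receptor and coreceptor genes, however, summed to 2808 to 2859 CPM in the Tbet-KO-labelled libraries. In no tumor WT that sum was only 1090 to 1139 CPM. Relative to it, Tbx21 was lower in the Tbet-KO-labelled libraries than in no tumor WT. A count summed over a gene hides the exons behind it, and the Tbet-/- allele is not given, so the label was not tested. The gate of the Tbet-/- cells held no Foxp3 marker, and the hosts had also received WT Foxp3-negative T cells. The part of such cells in these libraries was not tested. Tbx21 is a minus strand gene of chromosome 11, at 97098071 to 97115331 of GRCm38.

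Type 2 genes gave the 3 largest rises past both thresholds among genes of at least 1 CPM. Il13 and Il5, the cytokines that drive mucus and eosinophil responses, were near 0 in all libraries of the series but those labelled Tbet-KO. Il13 had 78.9, 73.9 and 72.3 CPM in the Tbet-KO-labelled libraries, against 0.485, 0.517 and 0.611 CPM in the tumor WT libraries. Il5 had 27.6, 26.3 and 22.4 CPM in the Tbet-KO-labelled libraries, against 0.539, 0.323 and 0 CPM in the tumor WT libraries. All 3 Tbet-KO-labelled libraries were above all 3 WT libraries for both genes. The log2 fold change was 7.11 (SE 0.19, adjusted p = 8.45e-49) for Il13, on 26 counts in the 3 WT libraries together, and 6.34 (SE 0.31, adjusted p = 3.21e-31) for Il5, on 15. Compared with the ST2-KO libraries, where 26.4% of tested genes were higher in the Tbet-KO-labelled libraries, the same edgeR fit gave 6.88 (adjusted p = 7.64e-48) for Il13 and 7.57 (adjusted p = 1.06e-31) for Il5.

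Il4, the third cytokine of the cluster, was far weaker, with 2.44, 1.83 and 3.33 CPM in the Tbet-KO-labelled libraries, against 0.216, 1.16 and 1.22 CPM in the tumor WT libraries. Its log2 fold change was 1.56 (SE 0.53, adjusted p = 0.0133), and it no longer passed the test without WT replicate 1 (1.07, adjusted p = 0.16) or without Tbet-KO replicate 3 (1.32, adjusted p = 0.098). The cluster lies on chromosome 11 of GRCm38 with Il4 at 53612460 to 53618665, Il13 at 53631323 to 53634702 and Il5 at 53720794 to 53725103. Rad50, the DNA repair gene between Il13 and Il5, changed by 0.32 (SE 0.06, adjusted p = 4.19e-06). Kif3a, a kinesin gene on the Il4 side, had 12.9 ± 1.03 CPM in the Tbet-KO-labelled libraries and 14.3 ± 0.457 CPM in tumor WT (SD, n = 3 each) and a log2 fold change of -0.15 (SE 0.15, adjusted p = 0.467). On the far side of Il5, Irf1, an interferon-induced transcription factor, changed by -0.40 (SE 0.04, adjusted p = 3.3e-12). For Il13 and Il5, which had the large rises, the bases before the start sites are shown, from RefSeq's annotation of GRCm38.p6. They lie at chr11:53634703-53634952 on the minus strand and chr11:53720544-53720793 on the plus strand. Capitals mark a form of the site of GATA factors, searched as AGATAA and, on the other strand, TTATCT. Other forms of the site were not searched and are not marked. Il13 holds 1, from base 81 to base 76 before its start site, and Il5 holds none of these letters in the bases shown.
Il13: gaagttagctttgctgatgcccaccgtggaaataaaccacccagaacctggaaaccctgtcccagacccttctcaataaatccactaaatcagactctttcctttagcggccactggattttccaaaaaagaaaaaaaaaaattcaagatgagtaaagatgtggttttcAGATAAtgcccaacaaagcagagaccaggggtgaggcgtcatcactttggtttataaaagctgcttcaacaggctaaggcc
Il5: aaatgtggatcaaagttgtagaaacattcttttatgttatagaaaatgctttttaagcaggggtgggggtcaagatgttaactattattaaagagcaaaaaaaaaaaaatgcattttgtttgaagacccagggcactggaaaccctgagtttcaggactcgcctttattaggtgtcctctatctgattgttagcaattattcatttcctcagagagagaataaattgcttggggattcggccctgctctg

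Retnla, which encodes a secreted protein induced by IL-4 and IL-13 in macrophages, had 33.8, 37.1 and 36.5 CPM in the Tbet-KO-labelled libraries, against 0, 0 and 0.136 CPM in the tumor WT libraries. Those WT values rest on 2 counts, against 1685 counts in the Tbet-KO-labelled libraries, a ratio of 872 with a 95% counting interval of 241 to 7209 that covers counting error only. Vdr, the vitamin D receptor, had 44.1, 43 and 43.4 CPM in the Tbet-KO-labelled libraries, against 3.67, 4.78 and 5.7 CPM in the tumor WT libraries, and a log2 fold change of 3.22 (SE 0.16, adjusted p = 7.14e-31). Neither gene overlapped between the groups. Gata3 had 289.9, 276 and 280.4 CPM in the Tbet-KO-labelled libraries, against 127, 119 and 129 CPM in the tumor WT libraries, and Il1rl1, the ST2 gene, had 258, 248 and 263 CPM in the Tbet-KO-labelled libraries, against 123, 127 and 136 CPM in the tumor WT libraries. The log2 fold changes were 1.18 (SE 0.04, adjusted p = 6.23e-39) for Gata3 and 0.99 (SE 0.04, adjusted p = 5.05e-34) for Il1rl1. Their levels in the other libraries were 97.1 CPM in ST2-KO and 57.8 CPM in no tumor WT for Gata3, and 89.9 CPM in ST2-KO and 76.9 CPM in no tumor WT for Il1rl1.

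Further genes tied to type 2 responses were higher, and which cells made them was not tested. Il17rb, a chain of the IL-25 receptor, changed by 1.57 ± 0.11 (log2 fold change ± standard error), Il9r, the IL-9 receptor, by 2.37 ± 0.14, and Areg, a growth factor of tissue repair, by 2.02 ± 0.47 at low levels (4.69, 4.72 and 3.47 CPM in the Tbet-KO-labelled libraries, against 0.917, 0.711 and 1.56 CPM in the tumor WT libraries). Ccl24, the eosinophil attractant eotaxin-2, had 6, 4.96 and 6.93 CPM in the Tbet-KO-labelled libraries, against 0.27, 0.0646 and 0.136 CPM in the tumor WT libraries. Of the Th2 and type 2 list, 9 of the 16 tested members were higher and 3 lower, with a median log2 fold change of 1.08 against 0.01 over all tested genes. The lower members were Maf (-0.25), Il4ra (-0.16, and -0.13 and -0.14 with no call without WT replicate 1 or Tbet-KO replicate 2) and Crem (-0.35, and -0.26 to -0.35 with no call without WT replicate 1 or 2 or Tbet-KO replicate 1), and Ccr4, Ccr8, Stat6 and Nfil3 did not pass the test (0.11, 0.16, 0.05 and 0.23), although Nfil3 was called in a fit of only the 6 libraries (adjusted p = 0.0255) and with the replicate block (adjusted p = 0.0266). Type 2 genes are also those of group 2 innate lymphoid cells. In the NK cell and innate lymphoid cell list, which holds Gata3 and Il1rl1 too, 10 of the 18 tested members were higher and 2 lower, and its summed level was 1663 to 1714 CPM in the Tbet-KO-labelled libraries, against 1298 to 1323 CPM in tumor WT. Of that list Id2 changed by 0.37, Rora by -0.07 (adjusted p = 0.212, called at -0.22 on the T cell scale) and Zbtb16 by 0.30 (adjusted p = 0.0984, and 0.0375 and 0.0358 in those 2 fits), and no listed member was at 0. The part of such cells in the type 2 result was not tested.

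**Figure D2:**
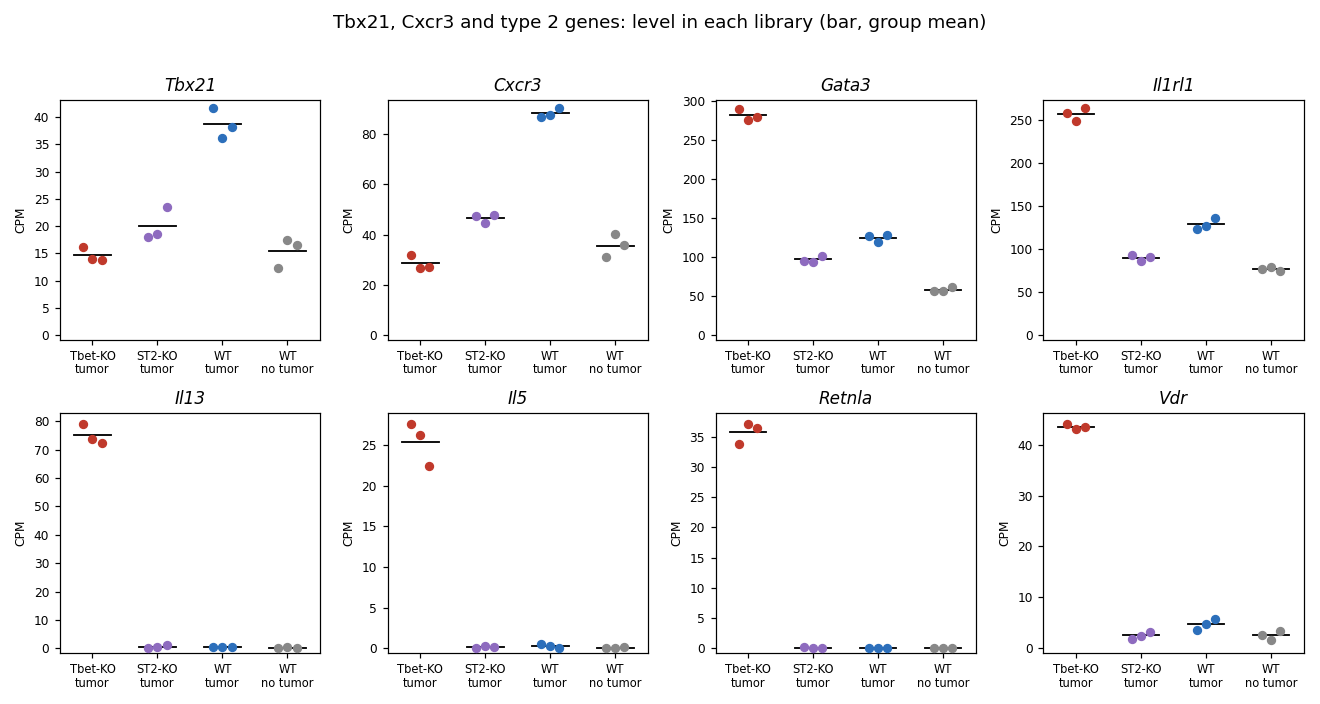
Level in CPM (vertical axes, linear from 0) of 8 genes in each library, by group on the horizontal axis, with 3 points per group and a bar at the group mean. Il13, Il5 and Retnla are near 0 in all libraries but the 3 labelled Tbet-KO, Gata3, Il1rl1 and Vdr are highest there, and Tbx21 and Cxcr3 are highest in tumor WT.

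Genes of the Th1 program moved in both directions, more of them down. Of 24 Th1 and Tbet target genes, 11 were lower and 6 higher, with a median of -0.15. On the T cell scale the list had 13 lower and 2 higher (median -0.30). Cxcr3, a chemokine receptor that Tbet activates, had 32, 26.8 and 27.1 CPM in the Tbet-KO-labelled libraries, against 86.9, 87.7 and 90.3 CPM in the tumor WT libraries, with no overlap and a log2 fold change of -1.62 (SE 0.08, adjusted p = 2.53e-31). Ifng, the Th1 cytokine, had 11.1, 12.3 and 13.3 CPM in the Tbet-KO-labelled libraries, against 16.7, 16.8 and 19.7 CPM in the tumor WT libraries, a smaller difference of -0.53 (SE 0.15, adjusted p = 0.00304). Ccl5, a chemokine of effector T cells, changed by -1.10 ± 0.15, and Il12rb2, the inducible chain of the IL-12 receptor, by -0.61 ± 0.12. Runx3, a factor that acts with Tbet in Th1 and CD8 T cells, rose by 0.55 ± 0.05, and Fasl, a death ligand, by 0.69 ± 0.14. Stat4, a mediator of IL-12 signals, did not pass the test (0.02).

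Genes that define Treg cells were mostly lower. Foxp3 had 118, 106 and 113 CPM in the Tbet-KO-labelled libraries, against 153, 161 and 162 CPM in the tumor WT libraries. The groups did not overlap, and the log2 fold change was -0.50 (SE 0.05, adjusted p = 1.73e-13). In the Treg identity list, 2 of the 22 tested members were higher and 17 lower, with a median of -0.46. The list summed to 2461 to 2477 CPM in the Tbet-KO-labelled libraries, against 3072 to 3135 CPM in tumor WT. Its sum was lower in the other groups, at 2182 to 2237 CPM in ST2-KO and 1533 to 1555 CPM in no tumor WT. The T cell receptor and coreceptor genes were lower there too, at 1358 to 1394 CPM and 1090 to 1139 CPM. They summed to 2808 to 2859 CPM in the Tbet-KO-labelled libraries, so the Treg sums do not rank these groups per T cell RNA. The largest falls were those of Itgae, the integrin chain CD103 (-1.37 ± 0.10), Lrrc32, the TGF-beta docking receptor GARP (-1.07 ± 0.11), Ikzf4, the factor Eos (-0.90 ± 0.10) and Tnfrsf9, the receptor 4-1BB (-0.84 ± 0.06). Ikzf2, the factor Helios and the most abundant of these regulators in CPM, changed by -0.40 ± 0.03, and Ctla4, an inhibitory receptor, by -0.58 ± 0.08. The higher members were Il2ra (0.24 ± 0.03), which encodes a gate marker, and Nrp1 (0.26 ± 0.07), and neither passed the test on the T cell scale (0.08 and 0.11). Il7r, whose product was gated against in the Tbet-/- sort alone, had 229 ± 5.1 CPM in the Tbet-KO-labelled libraries and 279 ± 5.33 CPM in tumor WT (SD, n = 3 each), so its transcript remained in both groups.

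Tissue Treg genes were divided. 14 of the 34 tested members were higher and 9 lower in this list, with a median of 0.10 that turned to -0.05 on the T cell scale. Beside Gata3 and Areg, the rises past a log2 fold change of 1 were those of Tnfrsf8, the receptor CD30 (1.27 ± 0.23) and Il10, the suppressive cytokine, with 16.3, 15 and 17.1 CPM in the Tbet-KO-labelled libraries, against 7.12, 6.92 and 9.3 CPM in the tumor WT libraries and a log2 fold change of 1.05 (SE 0.18, adjusted p = 7.93e-07). Penk, the enkephalin precursor, changed by 0.85 ± 0.07, Bhlhe40 by 0.69 ± 0.05 and Pparg, a nuclear receptor of adipose tissue Treg cells, by 0.51 ± 0.11. Irf4, a factor of effector Treg cells, had 96.1, 91.4 and 95.7 CPM in the Tbet-KO-labelled libraries, against 271, 268 and 268 CPM in the tumor WT libraries, a log2 fold change of -1.51 (SE 0.03, adjusted p = 8.75e-56), and Klrg1, a receptor of terminally differentiated T cells, had 39.6, 46.2 and 45 CPM in the Tbet-KO-labelled libraries, against 90.0, 83.8 and 93 CPM in the tumor WT libraries, a log2 fold change of -1.03 (SE 0.07, adjusted p = 4.19e-22). Irf4 is also high in plasma cells and at some B cell stages, and B cell markers fell. Batf, which acts with Irf4, did not pass the test (-0.07 ± 0.11, adjusted p = 0.677), nor did Ccr8 or Prdm1, the last of which was called lower on the T cell scale (-0.25).

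General T cell genes set the scale for these values. Of the T cell receptor and coreceptor list, 10 of the 17 tested members were higher and 4 lower (median 0.19). Cd247 and Zap70, a signal chain and the kinase that binds it, changed by 0.75 ± 0.06 and 0.84 ± 0.08, and Cd4 by 0.40 ± 0.04, whereas Cd5 and Cd6, scavenger receptors that restrain T cell receptor signals, changed by -0.58 ± 0.07 and -0.72 ± 0.05. The constant regions of the T cell receptor were not analysed here. Cd8a, a chain of the CD8 coreceptor, had 6.63 ± 1.01 CPM in the Tbet-KO-labelled libraries and 7.1 ± 0.433 CPM in tumor WT (SD, n = 3 each) and did not pass the test.

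Receptors of exhausted and follicular helper T cells included some of the larger rises. Pdcd1, the gene of PD-1, had 63.1, 58.7 and 62.8 CPM in the Tbet-KO-labelled libraries, against 20.3, 17.6 and 20.4 CPM in the tumor WT libraries, with a log2 fold change of 1.66 (SE 0.11, adjusted p = 4.6e-23). Lag3, another inhibitory receptor, had 35.1, 35.4 and 42.5 CPM in the Tbet-KO-labelled libraries, against 14.9, 16.2 and 14.7 CPM in the tumor WT libraries, with a log2 fold change of 1.30 (SE 0.12, adjusted p = 4.67e-16). Both were above every WT library in all 3 Tbet-KO-labelled libraries. Ctla4 and Tigit fell instead (-0.58 and -0.46), so that 5 of the 14 tested members were higher and 4 lower in the inhibitory receptor list. Il21, the cytokine of follicular helper cells, had 17.2, 16.5 and 16.2 CPM in the Tbet-KO-labelled libraries, against 2.75, 4.59 and 2.58 CPM in the tumor WT libraries and a log2 fold change of 2.33 (SE 0.24, adjusted p = 4.92e-14), and Tox2, a factor of those cells, had a log2 fold change of 1.83 (SE 0.17, adjusted p = 4.32e-16). The lineage factor Bcl6 and the homing receptor Cxcr5 moved the other way, by -0.44 ± 0.07 and -1.40 ± 0.17, as did Slamf6 (-1.08 ± 0.06) and Pou2af1 (-3.09 ± 0.04), the last a coactivator also of B cells. Among costimulatory receptors, Cd40lg (0.89 ± 0.15) and Tnfrsf8 rose and 9 of 15 members fell, among them Icos (-0.55 ± 0.06) and Tnfrsf4, the receptor OX40 (-0.53 ± 0.07).

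More cytotoxic genes were higher than lower. In that list 14 of the 24 tested members were higher and 5 lower, with a median of 0.31 (0.16 on the T cell scale, where the counts were 12 and 8). Past both thresholds 2 were higher and 2 lower. The lower members were Gzmc (-1.43 ± 0.49), Ccl5 (-1.10 ± 0.15), Serpinb6b (-0.59 ± 0.14), Ctsw (-0.29 ± 0.10) and Stx11 (-0.28 ± 0.07). Eomes, the T-box factor related to Tbet, had 48.3, 53.6 and 53.1 CPM in the Tbet-KO-labelled libraries, against 25.2, 24.9 and 25.4 CPM in the tumor WT libraries, a log2 fold change of 1.04 (SE 0.10, adjusted p = 2.94e-14). Gzma, a granzyme, had 35.5, 38.8 and 35 CPM in the Tbet-KO-labelled libraries, against 17.6, 19.2 and 16.7 CPM in the tumor WT libraries, a log2 fold change of 1.03 (SE 0.12, adjusted p = 8.75e-12). Nkg7, Cst7 and Prf1, which act in or on cytotoxic granules, changed by 0.80 ± 0.06, 0.76 ± 0.12 and 0.78 ± 0.13. Gzmb, another granzyme, had 124 ± 3.73 CPM in the Tbet-KO-labelled libraries and 130.3 ± 2.96 CPM in tumor WT (SD, n = 3 each) and did not pass the test, but was called lower on the T cell scale (-0.23). Klra7, Klrc1 and Klrk1, receptors of NK cells, changed by 1.06 ± 0.27, 0.60 ± 0.11 and 0.40 ± 0.09, while Klrb1c, the NK cell receptor NK1.1, and Fcer1g, a signal chain, fell (-0.46 ± 0.11 and -0.21 ± 0.04). Ncr1, which defines NK cells and related innate cells, had 26.2 ± 1.55 CPM in the Tbet-KO-labelled libraries and 28.1 ± 2.13 CPM in tumor WT (SD, n = 3 each) and did not pass the test.

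B lineage genes made up 8 of the 20 largest falls past both thresholds among genes of at least 1 CPM. Cd79a, a chain of the B cell receptor, had 6.25, 6.25 and 4.95 CPM in the Tbet-KO-labelled libraries, against 88.6, 78.8 and 88.8 CPM in the tumor WT libraries. Ebf1, a factor that commits progenitors to the B lineage, had 14.8, 14.9 and 17.8 CPM in the Tbet-KO-labelled libraries, against 210.4, 214 and 216 CPM in the tumor WT libraries. Rag1, a recombinase of antigen receptor genes, had 12.7, 16.2 and 16 CPM in the Tbet-KO-labelled libraries, against 225, 239 and 227 CPM in the tumor WT libraries. No library of one group reached the other in any of these, and the log2 fold changes were -3.87 (SE 0.08, adjusted p = 1.08e-58), -3.76 (SE 0.05, adjusted p = 9.86e-73) and -3.94 (SE 0.05, adjusted p = 3.24e-75) in that order. Among B cell markers 0 of the 15 tested members were higher and 14 lower (median -3.27), and the member that did not pass, Fcer2a, the low-affinity IgE receptor, had under 1 CPM in both groups (-2.44, called at -2.81 without WT replicate 3 and at -5.58 without Tbet-KO replicate 3). Among B cell precursor markers 0 of the 15 tested members were higher and 15 lower (median -3.17), with the widest fall for Vpreb1, a surrogate light chain gene, at -5.33 (SE 0.23, adjusted p = 3.33e-35), and Dntt, the polymerase that adds bases at receptor joints, at -5.08 (SE 0.15, adjusted p = 4.54e-47). The B cell list summed to 130.3 to 135 CPM in the Tbet-KO-labelled libraries, against 1033 to 1047 CPM in tumor WT, and to 2689.8 to 2759.9 CPM in ST2-KO and 3651 to 3668 CPM in no tumor WT. At an unadjusted p below 0.05 edgeR had 0 higher in both lists, and so did DESeq2 after adjustment. B lineage RNA was thus present in all groups and lowest in the Tbet-KO-labelled libraries.

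Bach2, which represses effector genes in lymphocytes, gave the smallest p of the comparison. It had 48, 53.3 and 47.8 CPM in the Tbet-KO-labelled libraries, against 452, 452 and 464 CPM in the tumor WT libraries, a log2 fold change of -3.19 (SE 0.03, adjusted p = 9.61e-81), and had 1333 CPM in ST2-KO and 1691 CPM in no tumor WT. Cecr2, a chromatin gene, and Pou2af1 were the next by p, at -3.30 ± 0.04 and -3.09 ± 0.04. Bach2 is expressed by B cell precursors and by T cells alike, and the part of the B lineage RNA in its fall was not tested. Of 14 naive and memory T cell genes, 10 were lower and 1, Bcl2, higher (median -0.34). Id3 (-2.43 ± 0.26), Ccr7 (-1.28 ± 0.13), Lef1 (-1.08 ± 0.05) and Foxo1 (-0.98 ± 0.04) are also used by B lineage cells, while Tcf7, the T cell factor TCF1, changed by -0.27 ± 0.07 and S1pr1, the egress receptor, by -0.41 ± 0.09. 

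**Figure D3:**
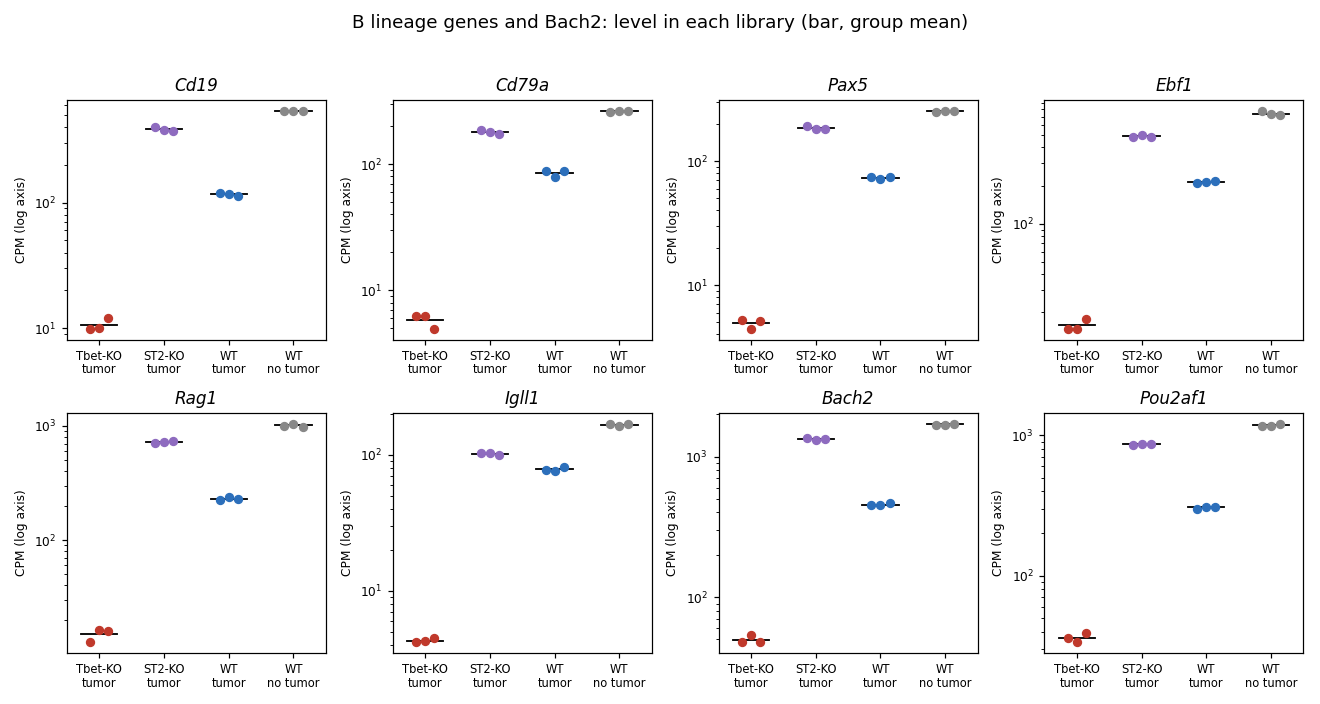
Level in CPM (vertical axes, logarithmic) of 7 B lineage genes and Bach2 in each library, by group on the horizontal axis, with 3 points per group and a bar at the group mean. In each panel the 3 Tbet-KO-labelled libraries are lowest, tumor WT is next and the ST2-KO and no tumor WT libraries are highest.

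Plasma cell markers moved in both directions. Jchain, which joins the units of secreted IgM and IgA, had 277, 278 and 270.0 CPM in the Tbet-KO-labelled libraries, against 40.7, 39.9 and 41.9 CPM in the tumor WT libraries, a log2 fold change of 2.75 (SE 0.06, adjusted p = 3.42e-58), while Mzb1 (-2.30 ± 0.16) and Slamf7 (-1.63 ± 0.05), also made by plasma cells, fell. Of the plasma cell list, which holds Irf4 too, 3 of the 11 tested members were higher and 4 lower (median -0.09). The other higher members were Xbp1 and Txndc5 (0.37 and 0.37), factors of protein secretion. The other lower member was Sdc1, the plasma cell surface marker CD138 (-0.44 ± 0.14), which lost its call without WT replicate 2 (-0.29, adjusted p = 0.136).

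Interferon response genes were lower almost throughout. Interferon-stimulated genes carry antiviral proteins and are induced by type I interferon and, in part, by interferon gamma. In the type I list 0 of the 30 tested members were higher and 28 lower (median -0.70), and Ifi27 and Bst2 did not pass the test (-0.23 and -0.12), the first of them called lower on the T cell scale (-0.39). At an unadjusted p below 0.05 edgeR also had 0 higher and 28 lower, and so did DESeq2 after adjustment. Rsad2, the antiviral enzyme viperin, had 27.6, 24.7 and 25.6 CPM in the Tbet-KO-labelled libraries, against 87.5, 94.7 and 89.6 CPM in the tumor WT libraries, with a log2 fold change of -1.80 (SE 0.08, adjusted p = 2e-35). Ifit1, which binds foreign RNA, had 13.4, 11.8 and 10.5 CPM in the Tbet-KO-labelled libraries, against 30.8, 30.6 and 31.3 CPM in the tumor WT libraries, with a log2 fold change of -1.37 (SE 0.13, adjusted p = 4.53e-16). Isg15, a ubiquitin-like modifier, had 4.62, 5.72 and 3.82 CPM in the Tbet-KO-labelled libraries, against 12, 11.4 and 12.9 CPM in the tumor WT libraries, with a log2 fold change of -1.35 (SE 0.18, adjusted p = 1.92e-09). The groups did not overlap in any of these, nor for Irf7, the factor that amplifies the response (-1.18 ± 0.09). The list summed to 1028 to 1077 CPM in the Tbet-KO-labelled libraries, against 1694 to 1710.1 CPM in tumor WT, and to 1115 to 1139 CPM in ST2-KO and 1289 to 1323 CPM in no tumor WT, so tumor WT was the highest of the 4 groups.

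Many promoters of these genes hold the letters GAAA, any 2 bases and GAAA, or on the other strand TTTC, any 2 bases and TTTC, a form of the interferon-stimulated response element, and the bases before the start sites of Isg15 and Ifit1 are shown with these letters in capitals, from RefSeq's annotation of GRCm38.p6, at chr4:156200819-156201068 on the minus strand and chr19:34640639-34640888 on the plus strand. Isg15 holds 3 overlapping copies from base 78 to base 57 before its start site, and Ifit1 holds 2 in the reverse direction, from base 104 to 95 and from base 85 to 76.
Isg15: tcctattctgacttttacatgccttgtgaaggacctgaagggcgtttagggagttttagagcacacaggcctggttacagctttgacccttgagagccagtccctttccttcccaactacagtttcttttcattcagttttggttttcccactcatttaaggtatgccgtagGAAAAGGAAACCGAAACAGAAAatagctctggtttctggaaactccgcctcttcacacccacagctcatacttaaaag
Ifit1: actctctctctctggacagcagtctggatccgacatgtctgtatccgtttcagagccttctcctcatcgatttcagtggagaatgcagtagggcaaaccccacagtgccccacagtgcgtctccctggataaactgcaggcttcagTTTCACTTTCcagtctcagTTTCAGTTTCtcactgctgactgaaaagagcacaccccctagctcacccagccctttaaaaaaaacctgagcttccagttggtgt
Over windows of 250 bases before to 50 after the start site, 13 of the 21 list members with a RefSeq promoter (61.9%) held the letters, against 329 of 10325 promoters of tested genes (3.19%). The list was made of interferon-induced genes, so that share does not describe these libraries. The letters stood in 6 of 203 promoters (2.96%) of genes higher past both thresholds and 30 of 506 (5.93%) of those lower. The T-box letters GGTGTGA or TCACACC stood in 10 of 203 promoters (4.93%) of genes higher past both thresholds, 22 of 506 (4.35%) of those lower and 357 of 10325 (3.46%) of all tested genes. The GATA letters stood in 18 of the 203 (8.87%), 56 of the 506 (11.1%) and 690 of the 10325 (6.68%). Overlap between the motifs was not removed, and no test was made of these shares.

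In the interferon gamma list 1 of the 25 tested members was higher and 21 lower (median -0.61). The list summed to 2377 to 2397 CPM in the Tbet-KO-labelled libraries, against 3431 to 3443 CPM in tumor WT. It summed to 2077 to 2083 CPM in ST2-KO and 2253 to 2278 CPM in no tumor WT, so tumor WT alone stood above the Tbet-KO-labelled libraries. Cxcl9, a chemokine that binds Cxcr3, had 15.4, 15.1 and 15.9 CPM in the Tbet-KO-labelled libraries, against 57.3, 58.5 and 60.6 CPM in the tumor WT libraries, a log2 fold change of -1.93 (SE 0.11, adjusted p = 3.5e-27). Ciita, the master activator of MHC class II genes, changed by -1.42 ± 0.10, Iigp1, an immunity-related GTPase, by -1.31 ± 0.05 and Gbp5, a guanylate-binding protein, by -0.94 ± 0.07. The member that rose was Tap2, a peptide transporter of antigen presentation (0.28 ± 0.05). Class II genes were lower in 7 of 12 members, with H2-Aa at -1.16 ± 0.04 and Cd74, the invariant chain, at -0.80 ± 0.04. Mouse T cells do not normally make class II, and B cells, macrophages and dendritic cells do. Markers were lower in 14 of 15 for B cells and 18 of 27 for monocytes and macrophages, and higher in 0 and 2. For dendritic cells, 7 of 11 conventional markers were lower and 2 higher, and 8 of 18 plasmacytoid markers were lower and 4 higher. The part of those cells was not tested. Class I genes were lower in 11 of 17, with B2m, the shared light chain, at -0.61 (SE 0.02, adjusted p = 9.83e-43).

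**Figure D4:**
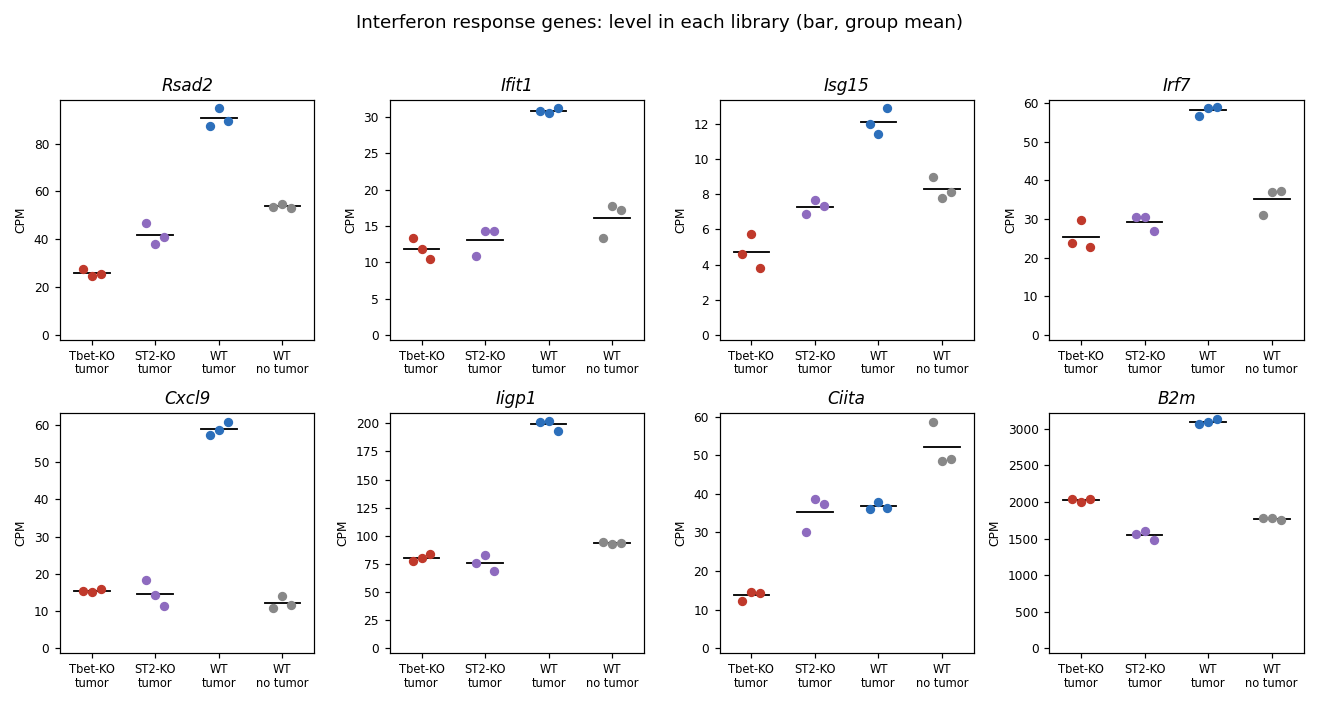
Level in CPM (vertical axes, linear from 0) of 8 interferon response genes in each library, by group on the horizontal axis, with 3 points per group and a bar at the group mean. Tumor WT is the highest group for Rsad2, Ifit1, Isg15 and Cxcl9, and the Tbet-KO-labelled libraries lie below tumor WT in every panel.

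Metabolic genes changed by less but in 1 main direction. Glycolysis and hypoxia genes were higher in 16 of 21 and lower in 2 (median 0.43, and 0.27 on the T cell scale). Ero1l, a hypoxia-induced oxidase of the endoplasmic reticulum, changed by 0.97 ± 0.04, Egln3, an oxygen sensor, by 0.83 ± 0.13, Pfkp, a phosphofructokinase, by 0.79 ± 0.06 and Aldoa, aldolase A, by 0.62 ± 0.03. Cholesterol genes were higher in 13 of 21 and lower in 0 (median 0.28), with Fdps, an enzyme of sterol synthesis, at 0.74 ± 0.09. On the T cell scale 9 were higher and 2 lower. At an unadjusted p below 0.05 edgeR had 1 cholesterol gene lower, and DESeq2 had 0 after adjustment. ER chaperone and secretion genes were higher in 15 of 22 and lower in 3 (median 0.23), and on the T cell scale 9 were higher and 5 lower (median 0.08). Herpud1, which ER stress induces, was among the lower ones (-0.61 ± 0.05). Cell cycle genes were lower in 23 of 39 and higher in 0 (median -0.14), with Mki67, the proliferation antigen, at -0.51 ± 0.02 and E2f2 at -0.81 ± 0.03. At an unadjusted p below 0.05 edgeR had 2 cell cycle genes higher, and DESeq2 had 0 after adjustment. Ribosomal protein genes had a median of 0.01, with 19 of 68 higher and 11 lower, and on the T cell scale 1 higher and 42 lower, a median of -0.15.

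Markers of other marrow cells changed in both directions beside these results, and their part in them was not tested. Eosinophil granule genes were higher. Epx, eosinophil peroxidase, had 589, 570.4 and 576 CPM in the Tbet-KO-labelled libraries, against 169, 169 and 174 CPM in the tumor WT libraries, a log2 fold change of 1.76 (SE 0.03, adjusted p = 2.99e-60), and Prg2, major basic protein, had 626, 612 and 613 CPM in the Tbet-KO-labelled libraries, against 212, 202 and 213 CPM in the tumor WT libraries, a log2 fold change of 1.56 (SE 0.03, adjusted p = 9.34e-57). Siglecf and Il5ra, surface receptors of eosinophils, changed by 1.07 ± 0.14 and 1.15 ± 0.19. The basophil proteases Mcpt8 and Prss34 fell, with log2 fold changes of -0.74 ± 0.16 and -1.03 ± 0.16, as did Ccr3, the eotaxin receptor (-0.78 ± 0.08). Over the basophil, mast cell and eosinophil list 11 of the 17 tested members were higher and 3 lower, and its sum was 1733 to 1776 CPM in the Tbet-KO-labelled libraries, against 715 to 744 CPM in tumor WT.

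Granulocyte markers moved in both directions: 7 of the 19 tested members were higher and 11 lower (median -0.14). The primary granule genes Prtn3, Elane, Ctsg and Mpo, made by promyelocytes, changed by 1.02 ± 0.07, 0.98 ± 0.04, 0.79 ± 0.07 and 0.68 ± 0.03. Of genes of later stages, S100a8, Lcn2 and Cxcr2 changed by -0.58 ± 0.03, -0.46 ± 0.02 and -0.67 ± 0.05, whereas Chil3, a chitinase-like protein, changed by 0.21 ± 0.02 and Camp, the cathelicidin gene, did not pass the test (-0.02 ± 0.03). On the T cell scale Chil3 did not pass (0.05) and Camp was called lower (-0.18). The granulocyte list summed to 17937 to 18107 CPM in the Tbet-KO-labelled libraries, against 21620 to 21947 CPM in tumor WT, several times the sum of the T cell receptor list, 2808 to 2859 CPM in the Tbet-KO-labelled libraries, against 2524 to 2579.7 CPM in tumor WT. Monocyte and macrophage markers were lower in 18 of 27 and higher in 2 (median -0.52), among them Hmox1, heme oxygenase (-1.29 ± 0.03), Marco, a scavenger receptor (-2.10 ± 0.28) and C1qb, a complement chain of tissue macrophages (-0.80 ± 0.06).

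Genes of MLL-fusion leukemia were higher in 17 of 19 and lower in 1 (median 0.91). The list summed to 2717 to 2750 CPM in the Tbet-KO-labelled libraries, against 2234.7 to 2264.5 CPM in tumor WT. It summed to 2887 to 2930 CPM in ST2-KO and 2952 to 2978 CPM in no tumor WT. Its sum was thus highest without leukemia and is no measure of leukemia RNA. Hoxa9, a homeobox gene that MLL fusions keep active, had 44.7, 42.9 and 39.6 CPM in the Tbet-KO-labelled libraries, against 18, 17.6 and 19.3 CPM in the tumor WT libraries, a log2 fold change of 1.22 (SE 0.11, adjusted p = 2.15e-16). Meis1, its cofactor, had 104, 107 and 114 CPM in the Tbet-KO-labelled libraries, against 42.1, 48 and 48.9 CPM in the tumor WT libraries, a log2 fold change of 1.23 (SE 0.07, adjusted p = 1.42e-26). Hoxa9 stood at 18 CPM in ST2-KO and 1.22 CPM in no tumor WT. The WT gate selected eGFP, which the leukemia cells carry, and the gate of the Tbet-/- cells did not. The part of the gates in these levels was not tested. Myb, the member that fell, changed by -0.15 ± 0.03. The stem and progenitor list was evenly divided: 7 of the 18 tested members were higher and 7 lower (median -0.08). In it Hlf, a stem cell factor, rose by 1.94 ± 0.12, while Tal1 (-2.13 ± 0.11) and Gfi1b (-1.57 ± 0.15), which also act in erythroid cells, and Procr, a stem cell surface receptor (-2.42 ± 0.74), fell. Procr lost its call without Tbet-KO replicate 1 (-2.09, adjusted p = 0.0513) and under limma-trend on log2 FPKM (-2.07, adjusted p = 0.0579).

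Erythroid genes were lower in 11 of 11 (median -2.09). Slc4a1, the anion exchanger of red cells, had 92.2, 91.6 and 92.8 CPM in the Tbet-KO-labelled libraries, against 518, 549 and 529 CPM in the tumor WT libraries, a log2 fold change of -2.53 (SE 0.04, adjusted p = 4.91e-70), and Alas2, the first enzyme of heme synthesis, changed by -2.45 ± 0.06. Hemoglobin genes were not analysed here. Stromal genes were lower in 8 of 14 and higher in 1, with Cxcl12, the chemokine of marrow stroma, at -2.13 ± 0.07 and Col1a1, a collagen, at -2.27 ± 0.13. Rn45s, a ribosomal RNA precursor left after rRNA removal, took 4.72% to 5.20% of counts in the Tbet-KO-labelled libraries, against 3.53% to 3.66% in tumor WT.

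Beyond the lists, the naming rule brought up genes of many functions at low levels. Bex1 had 33, 41 and 42 counts in the Tbet-KO-labelled libraries, against 0, 0 and 3 in tumor WT, a ratio of 40.0 with a 95% counting interval of 13.4 to 197, which covers counting error only. Slc17a6, a vesicular glutamate transporter, had 7.5, 9.38 and 9.06 CPM in the Tbet-KO-labelled libraries, against 0.917, 1.1 and 0.747 CPM in the tumor WT libraries and a log2 fold change of 3.22 (SE 0.37, adjusted p = 8.82e-12), and Cdh17, a cadherin of liver and intestine, had 9.37, 8.38 and 7.85 CPM in the Tbet-KO-labelled libraries, against 1.46, 0.517 and 1.36 CPM in the tumor WT libraries and a log2 fold change of 2.92 (SE 0.35, adjusted p = 3.82e-11). Both were higher in every Tbet-KO-labelled library than in any WT library. Il6, an inflammatory cytokine, had 3.69, 4.25 and 3.25 CPM in the Tbet-KO-labelled libraries, against 0.539, 0.259 and 0.679 CPM in the tumor WT libraries, with a log2 fold change of 2.90 (SE 0.53, adjusted p = 3.19e-06). Downward, Gm595 had 1 count in the Tbet-KO-labelled libraries together, against 98 in tumor WT, a WT to Tbet-KO ratio of 94.7 with a 95% counting interval of 16.6 to 3776, again of counting error only. Olfm4, a granule gene of a neutrophil subset, and Stfa2, a stefin of myeloid cells, were among the rises with the smallest p, at 1.49 ± 0.04 and 1.73 ± 0.06.

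**Figure D5:**
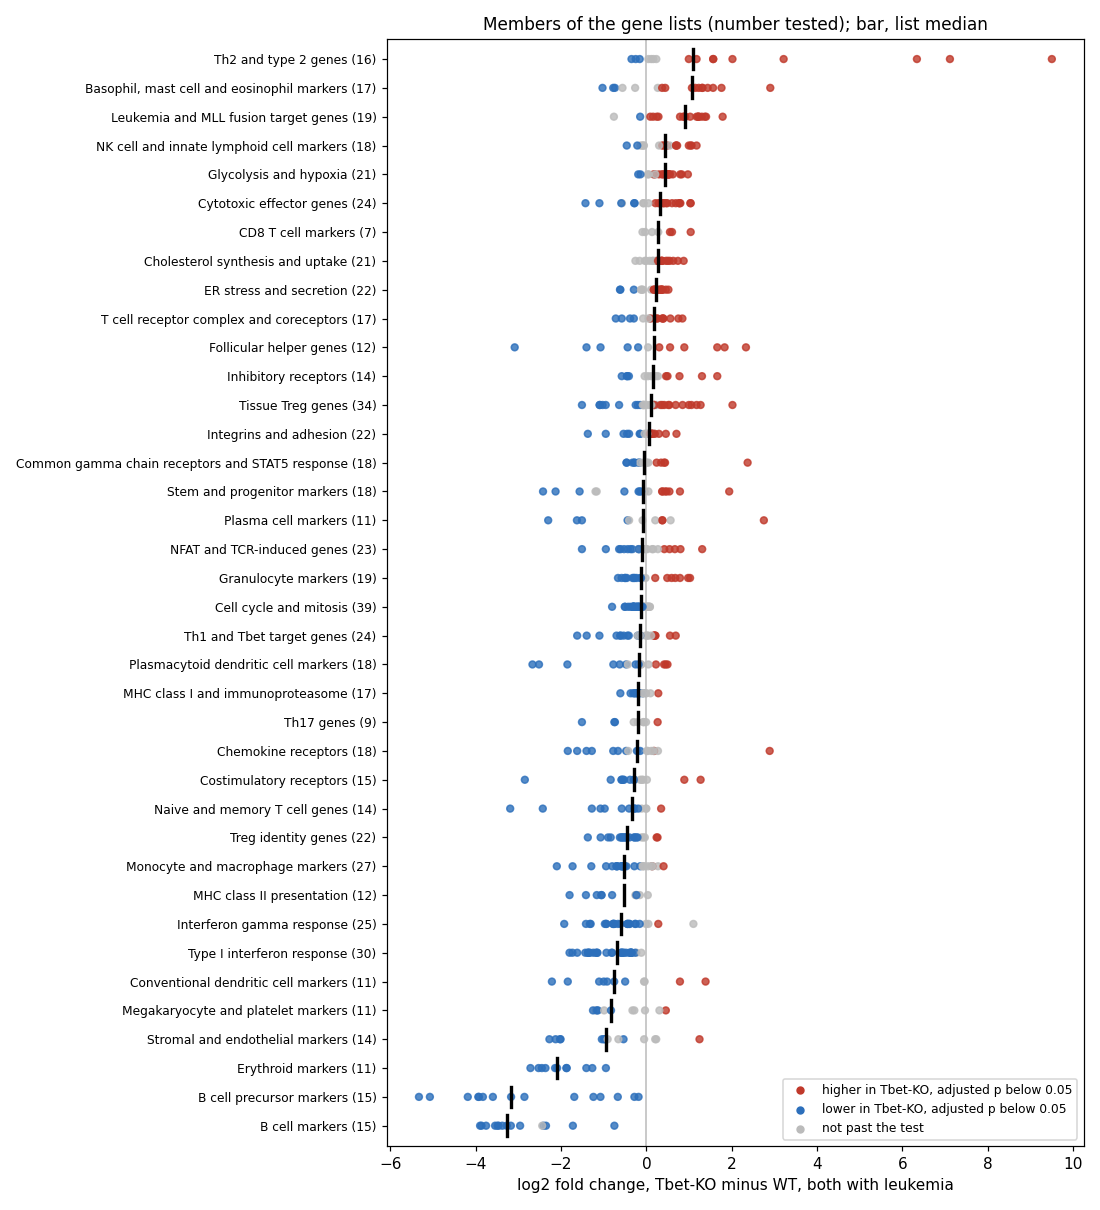
Log2 fold change (Tbet-KO minus WT, horizontal axis) of every tested member of 38 gene lists, 1 row per list ordered by its median (black bar), with the number tested in brackets. Th2 and type 2 genes and eosinophil and leukemia markers lie at the top, interferon response genes lie below 0, and B cell, B cell precursor and erythroid markers lie at the bottom.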

How the data were processed

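RNA of Treg cells sorted from bone marrow was made into libraries with rRNA removal (KAPA Hyperprep, QIAseq FastSelect). Per the study's methods and the submitters' processing notes, the authors aligned reads to mm10 with STAR 2.5, checked quality with FastQC 0.11.5 and bamutils 0.5.9, and counted reads per UCSC refGene gene with featureCounts of subread 1.5.1. The authors deposited these raw counts as whole numbers, unnormalized, and a second table of log2 FPKM values. In that deposited table each gene equals the log2 CPM after TMM scaling by edgeR less a constant for the gene, so it served only for levels per transcript length and for 1 alternative.

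All 12 libraries, grouped by their labels, were fitted together (edgeR 4.0.16 in R 4.3.3, TMM scaling, filterByExpr, quasi-likelihood test, Benjamini-Hochberg adjustment over 13782 genes), with the contrast Tbet-KO minus WT, and calls were made at an adjusted p below 0.05. On simulated data with these means and depths, 64.9% of genes changed by 0.5 on the log2 scale and 84.7% of those changed by 1 were recovered. Genes were named if they were Tbx21 or Il1rl1, named by the study, members of 40 gene lists, among the 20 largest changes in each direction past both thresholds with a mean of at least 1 CPM over the 6 libraries, or among the 10 smallest adjusted p in each direction. Members, lists and alternatives were chosen with earlier results of these data known. Genes flanking Il4, Il13 and Il5, and Gm595, were named after their values were seen. The alternatives were other scaling, tests (DESeq2 1.42.0, limma 3.58.1), filters, fits and thresholds, and leaving out each library. Figures were drawn with matplotlib 3.10.9.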

Additional observations from a re-analysis of the deposited data

How the results depend on the processing

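With 288 genes higher, 722 lower and 5322 called in all, the counts moved by less than 1.5 times under RLE size factors, DESeq2, a likelihood ratio test, no filter, a fit of only the 6 libraries, limma-trend on log2 FPKM, both other choices of library size and the T cell scale (208 higher, 906 lower). They moved further under a filter of at least 100 counts in 3 libraries, which left 10550 genes tested (134 higher, 421 lower), and beyond a log2 fold change of 2 (48 higher, 266 lower). Leaving out each library in turn gave 251 to 269 higher, 660 to 693 lower and 4562 to 4732 called. Tbx21 stayed lower at an adjusted p below 0.05 without any 1 library, at -1.47 to -1.34, but is not beyond a log2 fold change of 2.

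The replicate block gave 350 genes higher, 718 lower and 6158 called, and the same 6 libraries without it 353, 716 and 6191. The labels do not say that a number is shared, and same-numbered libraries hardly deviated together (correlations across genes of 0.008, 0.024 and 0.016), so the numbers were not taken as pairs. WT replicate 1 correlated best with Tbet-KO replicate 3 (0.011), and every other library with its own number.

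Of 163 genes in the text, none that was called changed sign under any of these alternatives. Among those not called, Batf (-0.156 to 0.013) and Bst2 (-0.289 to 0.0304) crossed 0, both without Tbet-KO replicate 2, and on the T cell scale Ccr4 turned to -0.042, Stat4 to -0.132 and Stat6 to -0.108. The cause was not tested. Under limma-trend on log2 FPKM, Procr, Nrp1 and Crem lost their calls (adjusted p = 0.0579, 0.0742 and 0.111). Against a log2 fold change of 0.5 (glmTreat), 330 genes were higher and 811 lower, and 45 of the 163 genes in the text lost their call.

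Low levels limit the comparison: Il13, Il5 and Retnla rest on few or no counts in WT, so the size of their folds is less certain than their direction. The Tbet-/- and WT cells were sorted by different gates, and the libraries held much RNA of other marrow cells. Neither can be separated from the genotype with these libraries.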
